A study of Mus musculus with 6 samples.

Results

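The genes described here encode structural parts of the sarcomere, the contractile unit of heart muscle: the Z-disc, the thin filament, the M-band and thick filament, the chaperones that assemble them, and the costamere and intercalated disc that tie them to the cell membrane. The list was set by name and held 37 genes. All 37 were measured, among 19938 named genes and 35556 probe sets on the array. Each gene was represented by the probe set that carried its symbol alone and had the highest mean over the 6 mice; 35 genes had 1 such probe set, and Nebl and Tmod1 had 2.

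RNA of cardiac ventricles was collected at postnatal day 17 from 3 transgenic mice, called TG-17 here after their line, and from 3 wild-type (WT) littermates, with 1 array per mouse. TG-17 mice carried miR-499 behind the alpha-myosin heavy chain (Myh6) promoter, which drives expression in cardiomyocytes. All TG-17 mice belonged to 1 line, so the line and the transgene cannot be told apart. The comparison asked which transcripts differed in young ventricles that overexpressed miR-499.

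Thin filaments of actin are anchored at the Z-disc, where alpha-actinin cross-links them, and thick filaments of myosin are held in register at the M-band by the myomesins. Nebulin-family proteins, tropomodulins and leiomodins bind the thin filament and its ends. Chaperones such as Unc45b fold myosin or help clear damaged filament proteins, and several of these genes change isoform or level between the newborn and the adult heart.

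MicroRNAs pair with target transcripts through their seed, bases 2 to 8. The mature sequence of miR-499-5p, the product of the transgene, is shown because it defines the perturbation, with the seed in capitals (RefSeq, build GRCm38.p6, chr2:155622893-155622913, plus strand).
mmu-miR-499-5p: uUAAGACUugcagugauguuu
The Mir499 probe set read 9.31, 9.33 and 8.87 in TG-17 mice and 5.48, 5.34 and 5.68 in WT mice on the log2 scale, a log2 fold change of 3.67 (SE 0.15, adjusted p = 0.00772 by limma). Every TG-17 value lay above every WT value.

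The promoters of 3 of the genes are shown because each held 1 MEF2 site, the sequence bound by the muscle transcription factors of the MEF2 family, and because these genes are among those with an unadjusted p under 0.05 in the comparison of TG-17 with WT. Each run spans 250 bases before the annotated start and 50 bases from it, 5′ to 3′ (RefSeq, GRCm38.p6), with the MEF2 site in capitals.
Myoz2 (chr3:123034938-123035237, minus strand): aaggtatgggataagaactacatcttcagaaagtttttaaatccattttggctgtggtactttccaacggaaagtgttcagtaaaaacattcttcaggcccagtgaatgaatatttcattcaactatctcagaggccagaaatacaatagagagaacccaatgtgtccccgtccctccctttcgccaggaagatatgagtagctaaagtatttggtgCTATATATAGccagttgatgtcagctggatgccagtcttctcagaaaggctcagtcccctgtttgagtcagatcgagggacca
Synpo2l (chr14:20668305-20668604, minus strand, 1 of its windows): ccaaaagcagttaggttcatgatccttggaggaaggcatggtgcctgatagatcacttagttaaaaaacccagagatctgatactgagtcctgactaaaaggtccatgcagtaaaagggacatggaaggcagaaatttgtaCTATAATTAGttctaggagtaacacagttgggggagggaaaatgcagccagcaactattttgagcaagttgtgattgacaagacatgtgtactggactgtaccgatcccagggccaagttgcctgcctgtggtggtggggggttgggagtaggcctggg
Xirp2 (chr2:67445752-67446051, plus strand): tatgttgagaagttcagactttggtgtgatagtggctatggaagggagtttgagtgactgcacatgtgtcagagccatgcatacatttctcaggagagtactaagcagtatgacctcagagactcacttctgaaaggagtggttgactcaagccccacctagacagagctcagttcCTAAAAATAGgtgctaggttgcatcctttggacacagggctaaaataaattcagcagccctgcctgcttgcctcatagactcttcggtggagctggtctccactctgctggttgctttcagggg
The first base of the MEF2 site lay at -33 from the start in Myoz2, -109 in Synpo2l and -74 in Xirp2. Windows were found for 28 of the 37 genes, 37 windows in all. A MEF2 site stood in 5 of these windows (13.5%), those of Mybpc3, Myoz2, Synpo2, Synpo2l and Xirp2, against 0.557% of all 32851 windows of the same length. Mybpc3 and Synpo2 had log2 fold changes of -0.015 and 0.016 (unadjusted p = 0.789 and 0.782 by limma). Only 6 of the genes with an unadjusted p under 0.05 had a window, and 3 of these 6 held a MEF2 site. No link between the motifs and the fold changes was tested. A CArG box, the site of serum response factor, stood in 6 windows (16.2%, against 1.63% of all windows), of Dmd, Ldb3, Myom1, Nebl and Vcl. The E-box (CANNTG) was found in 62.2% of the windows of these genes and in 72.3% of all windows, and the M-CAT element (CATTCC) in 21.6% and 14.7%. Of the 6 genes with a window and an unadjusted p under 0.05, 5 held an E-box, 0 a CArG box and 0 an M-CAT element. Windows of 1 gene can overlap. Those of Ldb3 shared the same CArG box and those of Flnc the same M-CAT element, so the shares count windows and not independent promoters. Both strands were searched, and the only overlapping matches in the 3 windows shown were 1 pair of E-boxes in Xirp2. These motifs were chosen after values of the genes had been seen, and a match is a stretch of letters, not a measured binding site.

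None of the 37 genes passed the test for a change between TG-17 and WT ventricles (limma, log odds of change B above 0), against 0.366% of all probe sets. The highest B was -1.53, for Myot, and the smallest adjusted p was 0.23, for Myot and Myoz2. At an unadjusted p under 0.05, 9 of the 37 were higher in TG-17 mice (24.3%, against 6.97% of all probe sets) and 1 was lower (2.7%, against 8.5%), while 27 did neither. Centring each array on its median gave 17 higher and 0 lower, with 12.8% of all probe sets higher and 4.33% lower at that threshold. A second quantile normalization gave 4 higher and 1 lower (Unc45b), with 6.11% of all probe sets higher and 6.64% lower. With the values as deposited, the genes were Myot, Smpx, Myom2, Myoz2, Synpo2l, Lmod2, Xirp2, Nexn and Lmod3 on the higher side and Myom3 on the lower side. The means of 32 genes were higher in TG-17 mice and those of 5 were lower.

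Most of these genes had bright probe sets, and bright probe sets as a whole leaned towards TG-17. In the brightest 25% of named genes, those with a mean log2 value of 8.68 or more, 16.4% passed an unadjusted p under 0.05 on the higher side and 3.89% on the lower side. There the median log2 fold change was 0.049, against -0.014 over all probe sets. Dimmer genes leaned the other way, with a median of -0.070 for means of 5.88 to 7.24 (1.97% higher and 13.2% lower) and -0.051 below that (1.85% higher and 9.53% lower). Of the 37 genes, 28 lay in the brightest 25%, and 8 of those 28 (28.6%) were higher and 0 lower, with a median of 0.086. The median over all 37 was 0.080, with a range of -0.15 to 0.57. The median of an array was 6.89 to 6.91 in TG-17 mice and 6.94 to 6.95 in WT mice, so TG-17 arrays had lower medians while their brightest probe sets read higher. The tilt depended on the scaling. The median of the brightest 25% was 0.10 with median centring and 0.00063 after the second quantile normalization. The median over the 37 genes was then 0.13 and 0.039. The part of this tilt in the values of the 37 genes was not tested.

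**Figure D1:**
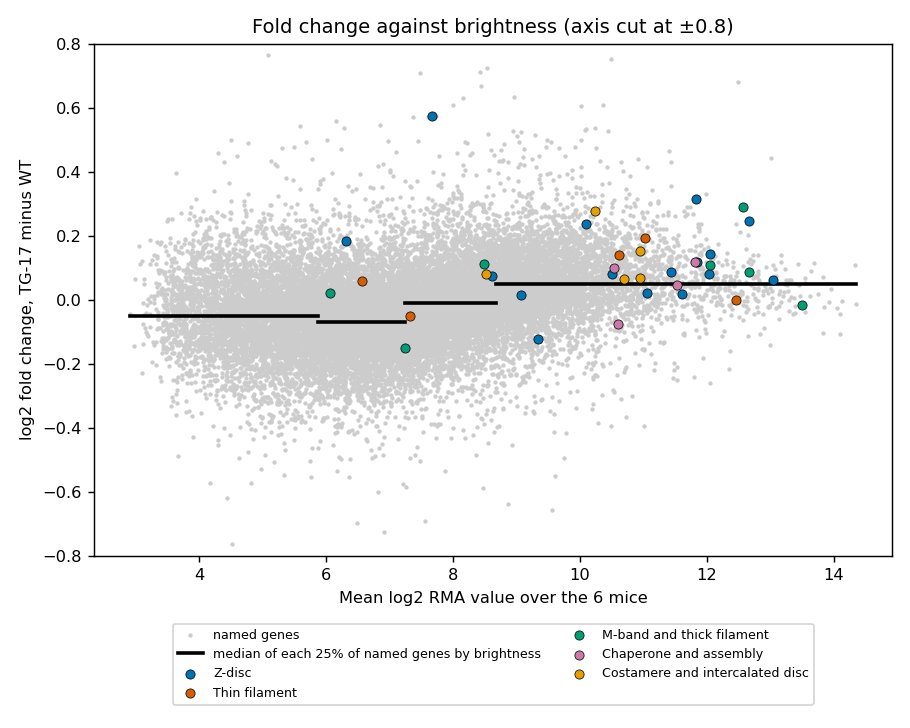
Log2 fold change (TG-17 minus WT, vertical axis, cut at 0.8 either way) against the mean log2 RMA value over the 6 mice (horizontal axis) for named genes (grey) and the 37 sarcomere structure genes (coloured by subgroup). Black lines give the median of each 25% of named genes by brightness, which was 0.049 in the brightest 25%, and Myot stands apart from the other coloured points at 0.57.

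The subgroups had similar medians, between 0.060 and 0.086, and no difference between subgroups was tested. At an unadjusted p under 0.05, the Z-disc had 31% higher, the thin filament 40%, and the M-band and thick filament 14%. The costamere and intercalated disc had 20%, and the chaperone and assembly genes 0%. These stand against 6.97% of all probe sets and 16.4% of the brightest 25% of named genes. Lower genes made up 14% of the M-band and thick filament and 0% elsewhere, against 8.5% and 3.89%. Of the 16 Z-disc genes, 5 were higher at an unadjusted p under 0.05 (Myot, Smpx, Myoz2, Synpo2l and Nexn) and 0 were lower. All but Pdlim3 had a higher mean in TG-17 mice, and the median log2 fold change was 0.083. In 8 of the 16, every TG-17 value lay above every WT value. Over all 37 genes this was so for 15 (40.5%), against 11.3% of all probe sets, and the opposite for 1 (2.7%), against 12.1%. Of the 28 genes among the brightest 25% of named genes, it was so for 13 (46.4%) and the opposite for 0. In that 25% as a whole the shares were 31.0% and 7.96%. In bulk tissue, more cells of a type and more RNA per cell cannot be told apart.

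Myot encodes myotilin, an actin-binding protein of the Z-disc. Its log2 values were 7.71, 8.09 and 8.07 in TG-17 mice and 7.33, 7.26 and 7.55 in WT mice. The groups did not overlap, with TG-17 mouse 1 closest to WT. Myot was 1.49-fold higher in TG-17 mice (log2 fold change 0.57, SE 0.13, unadjusted p = 0.00428, adjusted p = 0.23 by limma), the largest fold among the 37 genes.

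Myoz2 encodes myozenin 2 (calsarcin 1), the cardiac member of a family that links alpha-actinin to the phosphatase calcineurin. It read 12.71, 12.80 and 12.84 in TG-17 mice and 12.54, 12.50 and 12.57 in WT mice. Both groups were tight and lay clear of each other, a 1.19-fold difference (log2 0.25, SE 0.057, adjusted p = 0.23). Its relative Myoz1, the skeletal muscle calsarcin, read 6.27, 6.49 and 6.46 in TG-17 mice and 6.21, 6.16 and 6.29 in WT mice. Here TG-17 mouse 1 lay within the WT values, and the log2 fold change was 0.18 (SE 0.077, unadjusted p = 0.0534).

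Smpx, a small muscle protein of the costamere and Z-disc region, read 11.93, 11.93 and 12.07 in TG-17 mice and 11.67, 11.49 and 11.83 in WT mice. The groups did not overlap, and Smpx was 1.24-fold higher in TG-17 mice (log2 0.31, SE 0.098, adjusted p = 0.27). Synpo2l, an actin-associated protein related to synaptopodin 2, read 10.15, 10.24 and 10.25 in TG-17 mice and 10.09, 9.83 and 10.01 in WT mice, with WT mouse 2 lowest (log2 0.24, SE 0.081, adjusted p = 0.27). Nexn, which encodes the F-actin-binding Z-disc protein nexilin, read 12.08, 12.16 and 12.08 in TG-17 mice and 11.93, 11.93 and 12.04 in WT mice (log2 0.14, SE 0.058, adjusted p = 0.32). In both Synpo2l and Nexn the nearest values of the groups were close, 10.15 in TG-17 and 10.09 in WT for Synpo2l, and 12.08 and 12.04 for Nexn.

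**Figure D2:**
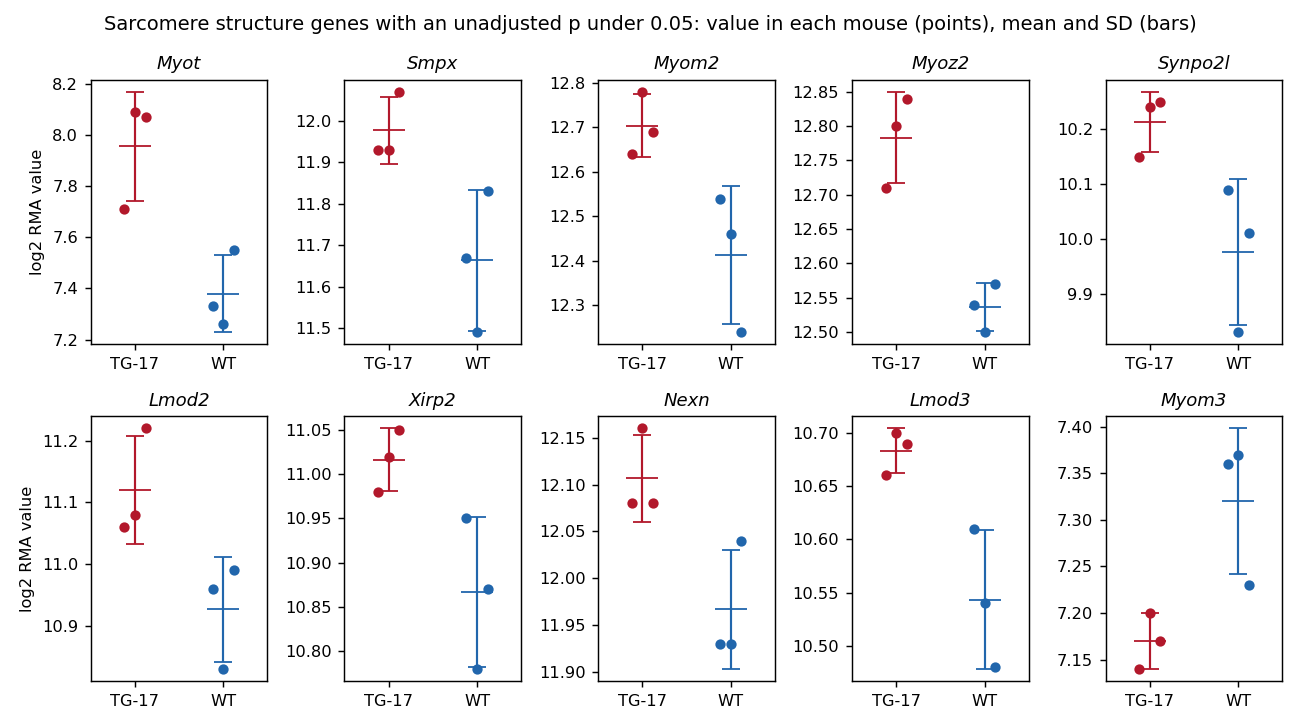
Log2 RMA value in each mouse (points) with the mean and SD of 3 mice (bars) for the 10 genes with an unadjusted p under 0.05, TG-17 left of WT, each panel with its own vertical axis that does not start at 0. In every panel the groups are apart, with TG-17 above WT in 9 panels and below it for Myom3.

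Other Z-disc genes shifted less. Des, the muscle intermediate filament protein desmin that joins neighbouring Z-discs, read 11.85, 11.94 and 11.91 in TG-17 mice and 11.79, 11.77 and 11.79 in WT mice. The groups were apart, but the log2 fold change was 0.12 (SE 0.050, unadjusted p = 0.0557). Actn2, the alpha-actinin that cross-links actin at the Z-disc, had a log2 fold change of 0.064 (95% interval -0.055 to 0.18), and Ldb3 (Cypher/ZASP), a PDZ-LIM protein that binds it, one of 0.087 (-0.036 to 0.21). In both genes every TG-17 value lay above every WT value.

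The values of the remaining Z-disc genes overlapped between the groups. Filamin C (Flnc), an actin cross-linker, had a log2 fold change of 0.080 (SE 0.069). The PDZ-LIM proteins Pdlim5 and Pdlim7 had values of 0.079 (SE 0.058) and 0.074 (SE 0.064). Cmya5 (myospryn), a large anchoring protein, had 0.023 (-0.090 to 0.14), Nebl (nebulette), the cardiac nebulin relative, 0.020 (-0.11 to 0.15), and Synpo2 (myopodin), which binds actin and filamin, 0.016 (SE 0.056). The second quantile normalization turned the sign of Nebl, Synpo2 and Cmya5, so no direction is given for these 3. In the RefSeq gene table Synpo2 lies next to Myoz2 and Synpo2l next to Myoz1, and the log2 fold changes were 0.016 and 0.25 for Synpo2 and Myoz2 and 0.24 and 0.18 for Synpo2l and Myoz1. Pdlim3 (ALP), another PDZ-LIM partner of alpha-actinin, had the widest spread, with 9.29, 9.18 and 9.36 in TG-17 mice and 9.09, 9.48 and 9.63 in WT mice. The WT values alone spanned all those of TG-17 mice (log2 -0.12, 95% interval -0.47 to 0.23). Without WT mouse 1, Pdlim3 was lower in TG-17 mice at an unadjusted p under 0.05 (log2 -0.28).

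**Figure D3:**
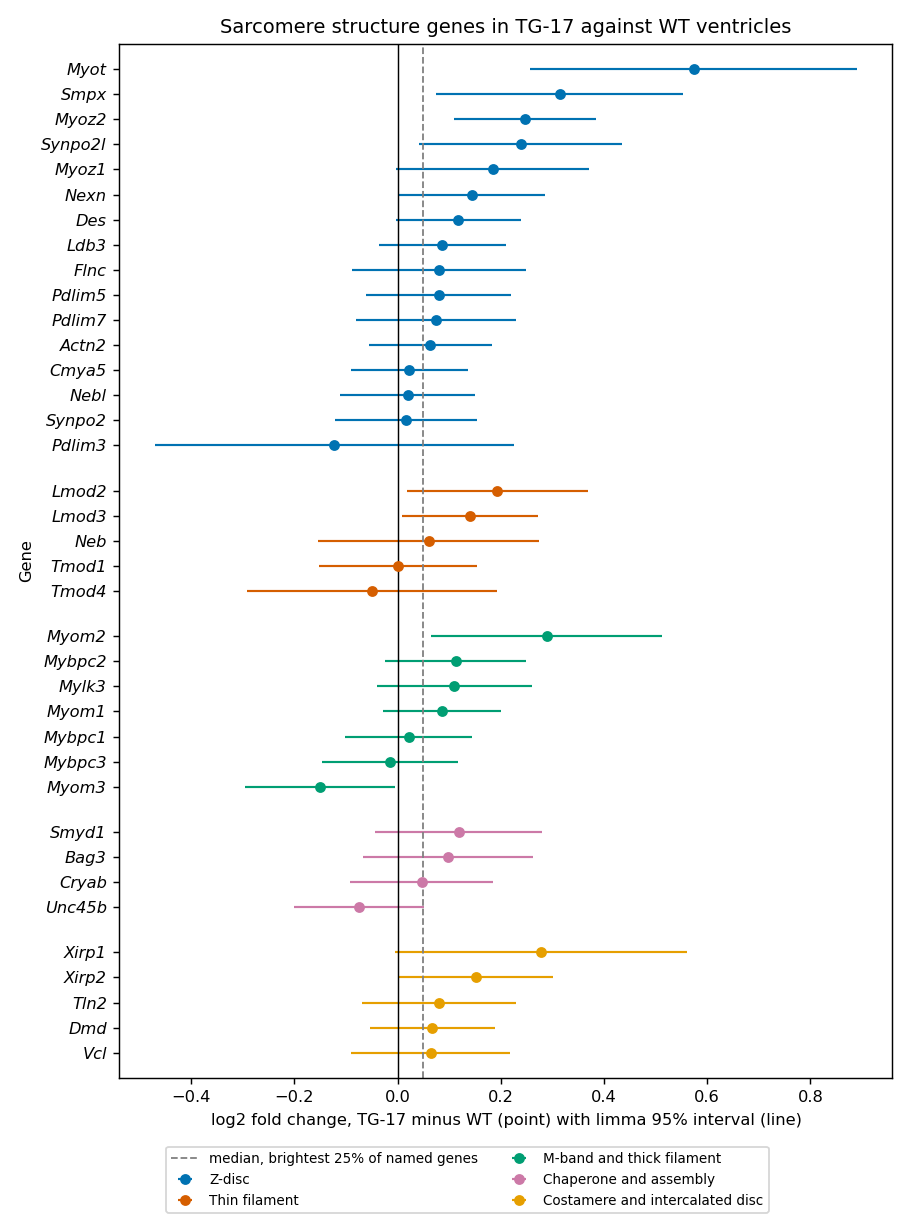
Log2 fold change (TG-17 minus WT, points) with its limma 95% interval (lines) for the 37 genes, in 5 subgroups, and the median of the brightest 25% of named genes (dashed line, 0.049). The intervals of 9 genes lie above 0 and that of Myom3 lies below 0.

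The thin filament subgroup held the leiomodins, which nucleate actin and bind its pointed end, and the tropomodulins, which cap that end. Of 5 genes, 2 (Lmod2 and Lmod3) were higher at an unadjusted p under 0.05 and 0 lower, with a subgroup median of 0.060. Lmod2 read 11.06, 11.08 and 11.22 in TG-17 mice and 10.96, 10.83 and 10.99 in WT mice (log2 0.19, SE 0.072, adjusted p = 0.30). Lmod3 read 10.66, 10.70 and 10.69 in TG-17 mice and 10.61, 10.54 and 10.48 in WT mice (log2 0.14, SE 0.055, adjusted p = 0.31). Neither gene's groups overlapped.

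Tmod1, the main cardiac tropomodulin, read 12.42, 12.43 and 12.52 in TG-17 mice and 12.43, 12.40 and 12.55 in WT mice. The log2 fold change was 0.00010, with a 95% interval of -0.15 to 0.15. The dimmer Tmod1 probe set read otherwise, with means of 7.15 in TG-17 mice and 7.40 in WT mice (log2 -0.25, SE 0.072, unadjusted p = 0.0122), so the probe sets of this gene disagreed. Tmod4, the tropomodulin of skeletal muscle, had a log2 fold change of -0.049 (SE 0.100), and Neb (nebulin), the thin-filament ruler of skeletal muscle, one of 0.060 (SE 0.088). Values of both overlapped between the groups, and leaving out single mice turned both signs.

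The M-band and thick filament subgroup held genes on both sides. Of 7, 1 (Myom2) was higher and 1 (Myom3) lower at an unadjusted p under 0.05, with a median of 0.086. The myomesins cross-link myosin at the M-band: Myom1 is expressed in all striated muscle, Myom2 (M-protein) in adult heart and fast fibres, and Myom3 in slow and intermediate skeletal fibres.

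Myom2 read 12.64, 12.78 and 12.69 in TG-17 mice and 12.54, 12.46 and 12.24 in WT mice, a 1.22-fold difference (log2 0.29, SE 0.092, adjusted p = 0.27). Myom3 read 7.14, 7.20 and 7.17 in TG-17 mice and 7.36, 7.37 and 7.23 in WT mice (log2 -0.15, SE 0.060, adjusted p = 0.31). Every TG-17 mouse was above every WT mouse for Myom2 and below every WT mouse for Myom3. The log2 fold change of Myom3 stayed below 0 with each mouse left out, but kept an unadjusted p under 0.05 only without WT mouse 3. Myom1 read 12.72, 12.72 and 12.67 in TG-17 mice and 12.62, 12.60 and 12.64 in WT mice, also without overlap (log2 0.086, SE 0.047, unadjusted p = 0.118).

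The shift between the groups in the difference of related genes within a mouse does not depend on how the arrays were centred, though it can carry the lean with brightness where 1 gene of a pair is brighter (the difference itself, between probe sets, is no measure of relative abundance). The log2 difference Myom2 minus Myom3 was 5.53 ± 0.042 in TG-17 mice and 5.10 ± 0.086 in WT mice (SD, n = 3 each), a shift of 0.44 with no overlap. The exact permutation test over 3 against 3 mice gave the smallest p this design allows, 0.10 (two-sided), and 0.38 after adjustment over the 15 pairs of related genes compared. Among those 15 pairs, which were chosen after their values had been seen, the groups also lay apart for Myom1 minus Myom3 (shift 0.24), Synpo2l minus Synpo2 (0.22) and Mybpc2 minus Mybpc3 (0.13), each with the same p. The other 11 pairs overlapped, among them Myoz1 minus Myoz2 (shift -0.062) and Lmod2 minus Lmod3 (0.053). Myom2 minus Myom3 and Myom1 minus Myom3 both contain Myom3, so they are not independent. How often pairs of other genes lay apart was not counted, so the number of separate pairs has no background beside it. After the second quantile normalization, an alternative added after seeing the data, the shifts were 0.34 for Myom2 minus Myom3, 0.13 for Myom1 minus Myom3, 0.12 for Mybpc2 minus Mybpc3 and 0.19 for Synpo2l minus Synpo2. The groups then overlapped for Synpo2l minus Synpo2 and lay apart for the other 3, and also for Myom1 minus Myom2 (shift -0.21).

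The myosin-binding protein C genes, whose products lie along the thick filament, differed little. Mybpc3, the cardiac form, had a log2 fold change of -0.015 (95% interval -0.15 to 0.12), a sign that median centring turned. Mybpc1, the slow skeletal form, had 0.021 (SE 0.051). Mybpc2, the fast skeletal form, read 8.59, 8.47 and 8.55 in TG-17 mice and 8.37, 8.43 and 8.47 in WT mice. Its groups did not overlap, but the lowest TG-17 value and the highest WT value were both 8.47 when rounded (log2 0.11, SE 0.056, unadjusted p = 0.0921). Mylk3, the cardiac myosin light chain kinase, also had every TG-17 value above every WT value (log2 0.11, SE 0.062).

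No chaperone or assembly gene reached an unadjusted p under 0.05. The median of the 4 was 0.072, and in none were the groups apart. Smyd1, a muscle methyltransferase needed for myofibril assembly, had a log2 fold change of 0.12 (SE 0.066) and Bag3, a co-chaperone at the Z-disc, 0.098 (SE 0.068), with TG-17 mouse 3 highest for both. Cryab (alphaB-crystallin), a small heat shock protein, had 0.046 (95% interval -0.092 to 0.19), with a turned sign under the second quantile normalization. Unc45b, the myosin chaperone, had -0.075 (-0.20 to 0.051), and -0.14 with an unadjusted p of 0.0345 after the second quantile normalization.

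Of the 5 costamere and intercalated disc genes, 1 (Xirp2) was higher at an unadjusted p under 0.05 and 0 lower, with a median of 0.080. The Xin proteins Xirp1 and Xirp2 bind actin at the intercalated disc. Xirp2 read 10.98, 11.02 and 11.05 in TG-17 mice and 10.95, 10.78 and 10.87 in WT mice (log2 0.15, SE 0.061, adjusted p = 0.32). Xirp1 had the larger difference and the larger spread, with 10.22, 10.36 and 10.52 in TG-17 mice and 10.14, 9.89 and 10.24 in WT mice (log2 0.28, SE 0.12, unadjusted p = 0.0535). TG-17 mouse 1 lay below WT mouse 3 for Xirp1, so its groups overlapped. Talin 2 (Tln2) and vinculin (Vcl), which couple integrins to actin, had 0.080 (SE 0.062) and 0.065 (SE 0.063), and dystrophin (Dmd), which links actin to the membrane complex, 0.067 (95% interval -0.054 to 0.19). The second quantile normalization turned the signs of Vcl and Dmd.

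The mice did not contribute equally. The median over the 37 genes of a mouse's deviation from the mean of 6 was 0.032, 0.047 and 0.070 in TG-17 mice 1 to 3, and -0.052, -0.064 and -0.013 in WT mice 1 to 3. WT mouse 2 was the lowest of the 6 mice for 20 of the 37 genes, and TG-17 mouse 3 the highest for 15. The same counts were not made over all probe sets or over bright genes. An offset of a whole array therefore cannot be told apart from a trait of these genes in that mouse. Without WT mouse 2, 4 genes (Myoz2, Myot, Smpx and Myom2) were higher at an unadjusted p under 0.05. Without TG-17 mouse 3 the 3 such genes were Myoz2, Myot and Myom2, and without TG-17 mouse 2 they were Myoz2, Myot and Smpx. Myoz2 and Myot kept their direction and an unadjusted p under 0.05 under each of the 15 other settings in which their fold change was recomputed.

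**Figure D4:**
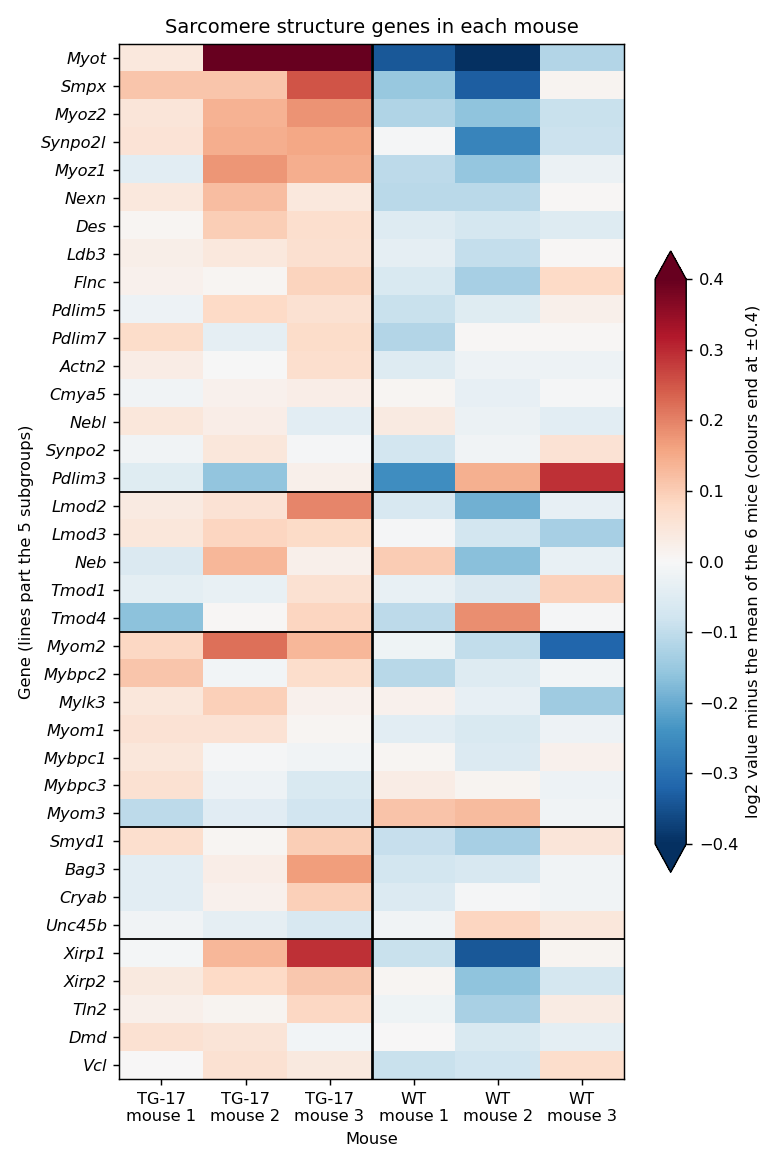
Deviation of each of the 37 genes (rows, in subgroups parted by lines) from its mean over the 6 mice, in log2 units (colour, ending at 0.4 either way), for each TG-17 mouse (left) and WT mouse (right). Red prevails in the TG-17 columns and blue in the WT columns, and Myom3 is blue in all TG-17 columns. WT mouse 2 holds the lowest value of 20 genes, a count that was not made over all probe sets.

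A second list, 32 other sarcomere and sarcomere-linked genes of which 31 were measured, gives the setting. There 5 rose by the test (B above 0) and 0 fell: Myh7, the slow and fetal beta-myosin heavy chain (log2 0.92, SE 0.12), Acta1, skeletal alpha-actin (0.68, SE 0.055), Mypn, the Z-disc protein myopalladin (0.49, SE 0.075), Trim54, a ubiquitin ligase of the sarcomere (0.39, SE 0.063), and Cavin4, a caveolar protein of the muscle membrane (0.36, SE 0.052). Their adjusted p-values by limma were 0.078 for Acta1 and 0.200 to 0.205 for the other 4. Over all probe sets, 0.366% had B above 0. The list's median was 0.12, and 13 of 31 (41.9%) were higher at an unadjusted p under 0.05 and 0 lower. All genes of the list but Ankrd2 and Tpm2 had a mean log2 value of 8.68 or more. Among all named genes that bright, 16.4% were higher and 3.89% lower at that threshold, with a median of 0.049. The part of this lean with brightness in the list's values was not tested. This second list was chosen with earlier results of these data known. The study had already reported Myh7 and Acta1 as raised on these arrays, so the list's counts are a description and no independent support.

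The 8 ventricular cardiomyocyte markers had linear sums of 110200 to 112200 in TG-17 mice and 110100 to 111600 in WT mice, and 0 of the 8 passed an unadjusted p under 0.05. Every TG-17 value lay above every WT value in 3 of them (37.5%, against 31.0% of the brightest 25% of named genes). The opposite held in 2 (25%, against 7.96%). All 8 had mean log2 values of 12.81 to 14.35, where quantile normalization between arrays can hold sums level. These sums therefore cannot show whether the share of cardiomyocytes changed. Of these 8, Myl2 and Myl3, the ventricular myosin light chains (mean log2 values of 13.69 and 13.45 over the 6 mice), set ventricle apart from atrium, and the other 6 are expressed in both. Atrial markers were also measured, with Nppa at a mean of 11.16 and Myl4 at 9.57. The 4 atrial markers were all lower at an unadjusted p under 0.05, with sums of 3069 to 3236 in TG-17 mice and 3715 to 4521 in WT mice. Of 12 skeletal muscle markers, 11 had a lower mean and 3 passed (Myh4, Myod1 and Myog), with sums of 1118 to 1163 in TG-17 mice and 1220 to 1288 in WT mice. These markers had mean log2 values of 5.26 to 7.92, a range in which named genes as a whole leaned lower: of those with means of 5.88 to 7.24, 13.2% were lower at that threshold, with a median log2 fold change of -0.070. Of 6 smooth muscle markers, 5 had a lower mean and 3 passed (Myh11, Acta2 and Cnn1), with sums of 6797 to 7258 in TG-17 mice and 7631 to 8353 in WT mice. The 4 leukocyte markers summed to 1985 to 2041 in TG-17 mice and 1775 to 1874 in WT mice, with 1 (Lyz2) higher. Fibroblast and endothelial markers, 6 and 5 genes, had overlapping sums and 0 past that threshold. The skeletal muscle sums ran the same way as Myom3 and the opposite way to Myot, Myoz1 and Mybpc2. The skeletal muscle forms Tmod4 (log2 -0.049), Neb (0.060) and Mybpc1 (0.021) had values near 0 whose signs turned when single mice were left out. The part of other cell types in any of the 37 values was not tested.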

How the data were processed

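RNA of cardiac ventricles from 3 TG-17 and 3 WT mice was profiled on Affymetrix Mouse Gene 1.0 ST arrays, with 1 array per mouse. The deposited table holds log2 values per probe set that the authors made with RMA by background correction, quantile normalization between arrays and probe summary (version not given in the sources used here). All 35556 probe sets entered the fit and 0 columns were left out. Platform annotation gave 1 symbol to 21789 probe sets, several to 1621 and none to 12146.

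TG-17 and WT were compared with limma 3.58.1 in R 4.3.3 (lmFit, eBayes, no covariate). B above 0, the less stringent of the study's cut-offs, was the call, with limma's default prior share of 0.01 (the study's methods name none); p-values were adjusted over all probe sets (Benjamini-Hochberg). The fit was tested on simulated data. All 37 genes are named; values in each mouse are given for those at an unadjusted p under 0.05 and for a few others chosen after their values were seen. The genes, lists, related pairs and motifs were chosen with earlier results of these data known. Group sizes of 3 limit the precision, and p-values cover only these mice. In the limma fit, the spread of each probe set was drawn towards a common spread estimated over all probe sets. Alternatives were a filter at the 25th percentile, named probe sets only, median centring, eBayes with an intensity trend or made robust, array weights, a second quantile normalization, the mouse number as a block, each mouse left out, the mean of a gene's probe sets, an assumed share of 0.05 and adjusted p under 0.05. Gene neighbours and promoters came from RefSeq (GRCm38.p6).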

Additional observations from a re-analysis of the deposited data

How the results depend on the processing

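Whether any of the 37 genes was called (B above 0) changed in 2 alternatives: 1 gene, Myoz2, was called with an intensity trend (B 0.46), and 2, Myot and Myoz2, with an assumed share of 0.05. No gene was called with any mouse left out or by an adjusted p under 0.05. The 9 genes higher at an unadjusted p under 0.05 became 17 with median centring, which moved the median of all probe sets to 0.037, and 4 with a second quantile normalization (Myoz1, Myoz2, Myot and Smpx), and 3 to 9 with single mice left out. The count of genes lower at that threshold, 1 (Myom3), became 0 with median centring, an intensity trend and the replicate block. It was 0 to 1 with single mice left out, where the gene was Pdlim3 without WT mouse 1 and Myom3 without WT mouse 3, and the 1 gene under the second quantile normalization was Unc45b. The median log2 fold change of 0.080 became 0.13 and 0.039 under the 2 scalings and 0.067 to 0.11 with single mice left out. Over all probe sets, 4.53% to 6.78% were higher and 6.30% to 8.36% lower at that threshold with single mice left out. Mice with the same number did not deviate together (correlations -0.00044 to 0.057), and the labels state no pairing. These correlations cannot exclude a shared litter or batch, so a pairing by number remains unknown. The replicate block gave 6 genes higher (Myoz2, Myot, Smpx, Lmod2, Myom2 and Xirp1) and 0 lower, with 6.49% of all probe sets higher and 7.80% lower, and 69 rather than 130 probe sets called. Signs turned for genes near 0. Median centring gave 0.0022 for Tmod4 and 0.036 for Mybpc3. The second quantile normalization gave -0.041 for Nebl, -0.013 for Synpo2, -0.059 for Cmya5, -0.078 for Tmod1, -0.016 for Cryab, -0.00065 for Dmd and -0.015 for Vcl. The mean of both probe sets gave -0.13 for Tmod1. With single mice left out the ranges were -0.11 to 0.031 for Tmod4, -0.016 to 0.051 for Synpo2, -0.032 to 0.045 for Tmod1, -0.050 to 0.012 for Mybpc3, -0.0079 to 0.13 for Neb and -0.0015 to 0.035 for Mybpc1. The causes were not tested. Over all genes and alternatives, 461 fold changes kept their side of the threshold, 44 lost it, 30 gained it and 20 turned sign. With 3 mice per group, the number of mice sets the precision, and Mybpc1 and Myoz1 had the lowest mean values among the 37 genes (6.07 and 6.31).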
